A study of Mus musculus with 18 samples.

Results

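A set of 38 genes for collagens, other extracellular matrix proteins, CCN proteins and smooth muscle type contractile proteins was followed in RNA-seq of bone marrow-derived macrophages (BMMs), out of 38887 genes with a value in every library. The members were found by gene symbol and joined to the libraries by Ensembl gene identifier. All 38 were found, and 36 passed the filter on low counts used for the tests, the exceptions being Cnn1 and Thy1. The filter was applied to all libraries together, so a member could pass it through the libraries where it was high. By role, there were 5 fibrillar collagen chains, 2 basement membrane collagen chains, 3 collagen VI chains, 6 proteins of collagen folding, processing and cross-linking, 9 proteoglycans, glycoproteins and microfibril proteins, 3 CCN proteins, 8 contractile proteins and 2 stromal surface proteins. The members were picked with the genotype comparisons of these same libraries in view, so differences between genotypes are described here without a test. The response to LPS did not enter that choice and was tested.

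The study asked how the glucocorticoid-induced leucine zipper GILZ, encoded by Tsc22d3, changes macrophages at rest and after lipopolysaccharide (LPS), a bacterial cell wall component. The 18 libraries formed 6 groups of 3, from 3 genotypes of C57BL/6J mice labelled female, each untreated or given 100 ng/ml LPS for 4 h. All 3 genotypes were described as carrying Cre recombinase under the Lyz2 promoter, which is active in myeloid cells, and the mice with no further change served as WT. In GILZ KO, exon 6 of Tsc22d3 was flanked by loxP sites, and in GILZ TG a Gilz-1 cDNA behind a loxP-flanked stop cassette was placed in the ROSA26 locus. Marrow of mice aged 10 to 23 weeks was grown for 6 days with 50 ng/ml M-CSF, and the RNA came from whole adherent cultures with no sort. Per the study, each group held preparations of 3 mice. Whether the untreated and LPS libraries with the same number came from the same mouse was not stated.

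Fibroblasts, marrow stromal cells and smooth muscle cells build and anchor the extracellular matrix. Fibrillar collagens are folded in the endoplasmic reticulum with the help of the chaperone encoded by Serpinh1, trimmed outside the cell by Bmp1 and Adamts2, and cross-linked by the lysyl oxidases Lox and Loxl1. Macrophages are known less for building this matrix than for degrading and remodelling it, whereas the network collagen chains Col4a1 and Col4a2 and the actin-binding tropomyosin Tpm1 are made by many cell types. In a bulk library, fewer cells of a type and less RNA per cell cannot be told apart.

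Promoters are shown for 5 members. Col1a2, Col3a1 and Acta2 had the shared library pattern described below. Fbn1 had this pattern too and was called higher after LPS. Col4a1 was also called higher after LPS but lacked the library pattern. The windows run from 250 bases before to 50 bases after the annotated start, 5′ to 3′ on the coding strand, and come from RefSeq on GRCm38.p6. Col1a2 lies on the plus strand at chr6:4505368-4505667, Col3a1 on the plus strand at chr1:45311288-45311587, Acta2 on the minus strand at chr19:34255324-34255623, Fbn1 on the minus strand at chr2:125506389-125506688 and Col4a1 on the minus strand at chr8:11312777-11313076. Capitals mark matches on either strand to the core promoter element TATAAA, to the element CCAAT bound by factor NF-Y, to the GC box GGGCGG bound by Sp1, and to the MCAT element GGAATG bound by TEAD factors.
Col1a2: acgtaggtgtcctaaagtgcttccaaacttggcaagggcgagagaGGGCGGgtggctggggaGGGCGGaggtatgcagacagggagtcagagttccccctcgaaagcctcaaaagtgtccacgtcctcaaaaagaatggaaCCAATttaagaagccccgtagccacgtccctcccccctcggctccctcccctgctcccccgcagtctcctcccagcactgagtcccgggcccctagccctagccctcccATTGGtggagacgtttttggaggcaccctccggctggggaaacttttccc
Col3a1: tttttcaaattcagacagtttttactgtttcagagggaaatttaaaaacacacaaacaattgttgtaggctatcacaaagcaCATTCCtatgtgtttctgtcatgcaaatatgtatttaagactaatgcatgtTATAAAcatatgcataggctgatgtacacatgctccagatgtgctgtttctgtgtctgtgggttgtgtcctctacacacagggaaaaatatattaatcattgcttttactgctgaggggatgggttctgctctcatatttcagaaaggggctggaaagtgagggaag
Acta2: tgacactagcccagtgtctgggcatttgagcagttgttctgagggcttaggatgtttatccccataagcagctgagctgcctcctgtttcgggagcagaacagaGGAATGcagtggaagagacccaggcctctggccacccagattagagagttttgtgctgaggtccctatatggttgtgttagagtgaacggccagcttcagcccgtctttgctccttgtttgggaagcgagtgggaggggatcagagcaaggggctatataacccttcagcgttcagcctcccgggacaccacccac
Fbn1: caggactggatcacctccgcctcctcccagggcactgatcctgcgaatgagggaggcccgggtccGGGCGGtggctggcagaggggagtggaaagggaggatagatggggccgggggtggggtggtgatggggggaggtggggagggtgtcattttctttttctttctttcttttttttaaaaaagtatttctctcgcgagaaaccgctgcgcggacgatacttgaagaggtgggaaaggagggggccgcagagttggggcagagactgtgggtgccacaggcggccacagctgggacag
Col4a1: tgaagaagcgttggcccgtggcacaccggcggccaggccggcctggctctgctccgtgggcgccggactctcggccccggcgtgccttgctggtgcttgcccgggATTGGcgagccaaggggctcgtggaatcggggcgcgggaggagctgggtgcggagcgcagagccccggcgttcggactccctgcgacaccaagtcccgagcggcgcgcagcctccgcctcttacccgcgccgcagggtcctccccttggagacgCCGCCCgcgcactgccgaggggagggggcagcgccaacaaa

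RefSeq windows were found for 24 of the 38 members, 27 windows in all. The GC box was in 18 of the 27 windows, against 35.7% of all 32851 promoter windows, and CCAAT in 7, against 37.4%. TATAAA was in 4 (13.6% of all), GGAATG in 6 (14.7%) and the AP-1 sequence TGANTCA in 2 (7.81%). An exact match to the CArG box CCWWWWWWGG (W being A or T) of smooth muscle genes was in 1, that of Myl9, against 1.63% of all promoters. The Acta2 window holds ccctatatgg and ccttgtttgg, each 1 base off this sequence, which the search did not count. A kappa B site was in 2, those of Myl9 and Serpinh1, against 4.51%. Among the windows printed, only that of Col3a1 held a TATAAA match, and none held a kappa B site by this search. Matches overlap in no window printed. They are descriptions of these letters only. Col4a1 and Col4a2 sit head to head on chromosome 8 and share 22 bases at their starts in the GENCODE annotation, and their promoter windows share 78 bases.

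The libraries held 14583055 to 38557029 estimated counts. Tsc22d3 followed the labels, at 14.88 to 18.84 TPM in untreated WT, 1.89 to 2.81 TPM in untreated GILZ KO and 151.97 to 159.83 TPM in untreated GILZ TG (TPM is a level scaled for transcript length and library total). After LPS it was at 4.56 to 5.81 TPM in WT, 2.5 to 3.28 TPM in GILZ KO and 127.22 to 140.56 TPM in GILZ TG. The gap between WT and GILZ KO was thus smaller after LPS. Lyz2, the locus described as carrying Cre in all 3 genotypes, was at 6766.01 to 15401.11 TPM in the 6 WT libraries and at 17.24 to 70.25 TPM in the 12 GILZ KO and GILZ TG libraries, which goes against WT having the same Cre allele in the same dose. The Cre status of the libraries labelled WT is therefore in doubt, and a difference from WT below cannot be told apart from a difference at Lyz2. The macrophage markers Adgre1 and Csf1r were at 434.07 TPM or more in every library. The libraries of GILZ TG replicates 1 and 2, untreated and after LPS, stood apart from the other 14 in the members, and the differences between GILZ TG and WT below are given with and without them.

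Most members were several times higher in GILZ TG replicates 1 and 2 than in any other library, and this was so both before and after LPS. Of the 38 members, 35 were higher in both of these untreated libraries than in each of the other 7 untreated libraries, which held for 9.01% of the 13169 genes tested. After LPS it held for 33 members (11.6% of genes tested), and in both treatments for 33 (4.63%), all but Col4a1, Col4a2, Lox, Pdgfrb and Thy1. Because the genotype contrast was used to choose the members, these shares are given only as a background. In both treatments the libraries with the same numbers were high.

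**Figure D1:**
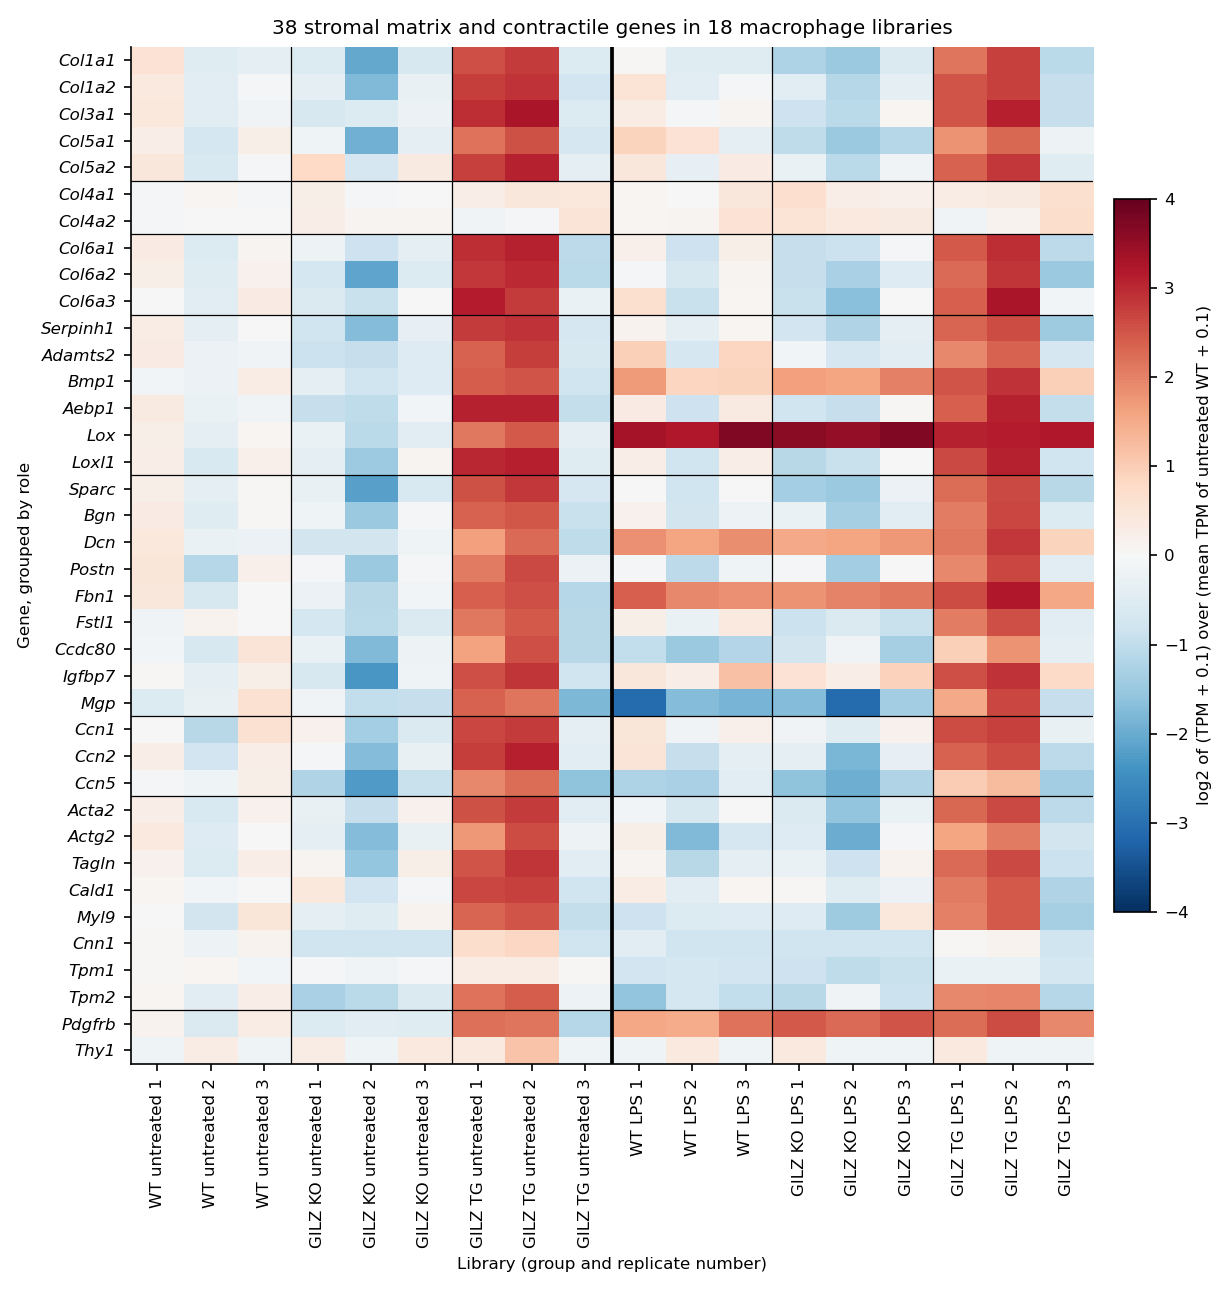
Levels of the 38 members (rows, grouped by role) in the 18 libraries (columns), as log2 of TPM plus 0.1 over the mean of the 3 untreated WT libraries plus 0.1. The 4 libraries of GILZ TG replicates 1 and 2 form the red columns, Lox, Fbn1, Dcn, Bmp1 and Pdgfrb are red in all LPS libraries, and the rows of Col4a1, Col4a2 and Tpm1 stay near white.

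A level for each library was taken as the median over the members of its TPM relative to the mean of the WT libraries of the same treatment. It was 5.89 and 6.87 in untreated GILZ TG replicates 1 and 2 and 5.38 and 6.74 after LPS. In GILZ TG replicate 3 it was 0.580 untreated and 0.616 after LPS, below all 6 WT libraries, which ranged from 0.716 to 1.21. Among the GILZ KO libraries replicate 2 was lowest, at 0.384 untreated and 0.430 after LPS, while the other 4 lay between 0.786 and 0.976. The GILZ TG group therefore held both the highest libraries of the series and 1 library per treatment under the WT range.

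**Figure D2:**
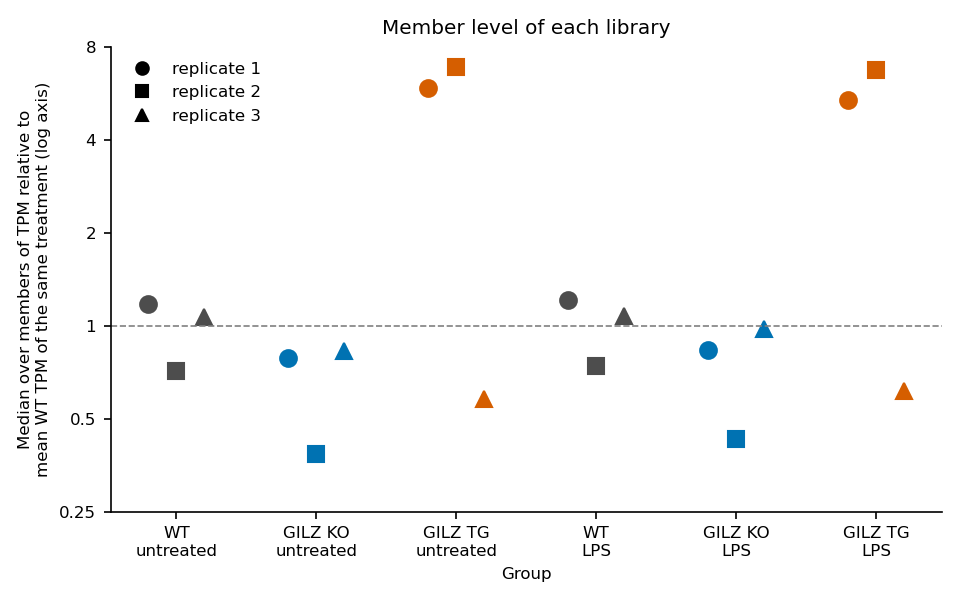
Member level of each library, as the median over the members of TPM relative to the mean WT TPM of the same treatment (log axis); each point is 1 library, with the replicate number as its shape. GILZ TG replicates 1 and 2 lie between 5.38 and 6.87 and all other libraries between 0.384 and 1.21.

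Among the fibrillar collagens, Col1a1, the main chain of type I collagen (GRCm38, chromosome 11, 94936224 to 94953042, plus strand), was at 11.04, 5.20 and 5.73 TPM in untreated WT. It was at 4.95, 1.68 and 4.68 TPM in untreated GILZ KO and at 44.20, 51.29 and 4.98 TPM in untreated GILZ TG. After LPS it was at 7.55, 5.26 and 5.21 TPM in WT, 3.08, 2.55 and 4.85 TPM in GILZ KO and 32.70, 48.92 and 3.38 TPM in GILZ TG. The third GILZ TG library thus lay below every WT library in both treatments, and the GILZ TG group overlapped WT although its untreated mean, 33.5 ± 24.9 TPM (SD, n = 3), was 4.57 times the WT mean of 7.32 ± 3.23 TPM. Col1a2, the partner chain, had the same order, with 38.67 and 42.22 TPM in the high untreated GILZ TG libraries and 3.28 TPM in the third. The ratio of Col1a1 to Col1a2, both in TPM, stayed between 0.759 and 1.52 in all 18 libraries, including the 4 high ones. Col3a1, the type III chain found beside type I in soft tissue, was at 13.05, 15.93 and 1.04 TPM in untreated GILZ TG against 1.14 to 2.17 TPM in WT. The minor fibril chains Col5a1 and Col5a2 reached 4.15 and 9.63 TPM in the high libraries and were at or under 1.92 TPM in all libraries other than GILZ TG replicates 1 and 2.

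The collagen VI chains Col6a1, Col6a2 and Col6a3, which assemble into beaded filaments around cells, showed the same library pattern. Col6a1 was at 16.26, 17.77 and 0.93 TPM in untreated GILZ TG and at 2.54, 1.34 and 2.18 TPM in untreated WT. Col6a2 was at 13.47, 14.85 and 0.79 TPM against 2.11, 1.26 and 2.02 TPM. In both genes the third GILZ TG library was below each WT library.

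The basement membrane chains Col4a1 and Col4a2 did not follow this pattern. Col4a1 was at 9.14, 10.10 and 9.29 TPM in untreated WT, 11.20, 8.91 and 9.67 TPM in untreated GILZ KO and 11.44, 13.00 and 12.77 TPM in untreated GILZ TG. It was the only member whose 3 untreated GILZ TG libraries all lay above the 3 WT libraries, a pattern found in 9.63% of genes tested. Its partner Col4a2 was at 15.72, 16.30 and 16.49 TPM in WT and 14.80, 15.56 and 22.97 TPM in GILZ TG, where the third library was the highest and the other two were under the WT range. Across the 18 libraries the Pearson correlation of log2(TPM + 1) with the mean of all members was 0.26 for Col4a1 and -0.50 for Col4a2, against 0.97 or more for 20 of the 38 members. These correlations are descriptions over 18 libraries that share 4 high ones, and the mean includes the gene itself.

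**Figure D3:**
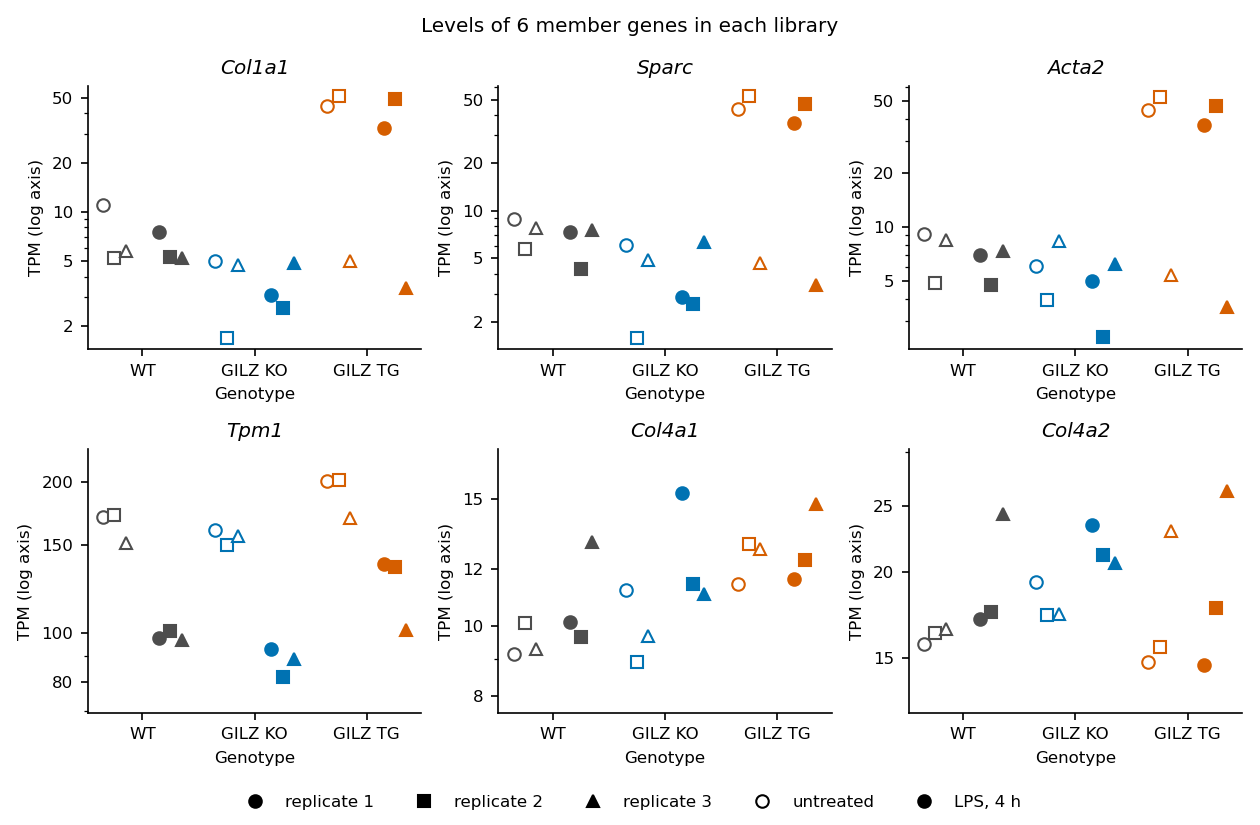
TPM (log axis) of 6 members in each library, open for untreated and filled for LPS, with the replicate number as the shape. Col1a1, Sparc and Acta2 are several times higher in GILZ TG replicates 1 and 2 than elsewhere, Tpm1 is abundant in all libraries and lower after LPS, and Col4a1 and Col4a2 vary within 8.91 to 15.28 TPM and 14.65 to 26.31 TPM.

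Of the proteins that fold, trim and cross-link collagen, Serpinh1, which encodes the collagen chaperone HSP47, was at 20.43, 21.61 and 1.77 TPM in untreated GILZ TG against 3.50, 2.15 and 2.90 TPM in WT. Loxl1, a lysyl oxidase tied to elastic fibres, was at 4.27, 4.64 and 0.29 TPM against 0.55, 0.26 and 0.52 TPM, which gave the highest GILZ TG to WT ratio of means among the members untreated, 6.92. Aebp1, a collagen-binding secreted protein, was at 5.28, 5.34 and 0.23 TPM against 0.72, 0.43 and 0.48 TPM. The procollagen peptidases Adamts2 and Bmp1 reached 2.87 and 4.59 TPM in the untreated high libraries. Lox, the founding lysyl oxidase, was at 6.55, 8.45 and 1.1 TPM in untreated GILZ TG against 1.72, 1.11 and 1.53 TPM in WT, and after LPS its GILZ TG libraries lay below the WT libraries.

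The matrix proteins Sparc, a collagen-binding glycoprotein, and Bgn, the small proteoglycan biglycan, were the most abundant members of their group. Sparc was at 8.87, 5.78 and 7.76 TPM in untreated WT, 6.05, 1.57 and 4.86 TPM in untreated GILZ KO and 44.13, 53.22 and 4.65 TPM in untreated GILZ TG. Bgn was at 31.22, 34.17 and 3.22 TPM in untreated GILZ TG against 4.33 to 7.61 TPM in WT. Postn, Fstl1, Igfbp7, Ccdc80, Fbn1, Dcn and Mgp were lower, with highest values of 3.74 TPM (Ccdc80) to 18.21 TPM (Igfbp7), and in both treatments each had its 2 highest libraries of that treatment in GILZ TG replicates 1 and 2. Mgp, an inhibitor of calcification, rested on few reads: its counts ranged from 0 to 50 over the libraries.

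The CCN proteins Ccn1 and Ccn2, matricellular proteins induced by YAP and TGF-beta, and Ccn5 were highest in the same libraries. Ccn2 was at 23.21, 29.22 and 2.46 TPM in untreated GILZ TG against 4.02, 1.89 and 3.98 TPM in WT, and Ccn1 at 9.83, 10.69 and 1.07 TPM against 1.48, 0.62 and 2.25 TPM.

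Among the contractile genes, Acta2, smooth muscle alpha actin, was at 9.17, 4.91 and 8.52 TPM in untreated WT and 44.96, 52.97 and 5.43 TPM in untreated GILZ TG. After LPS it was at 37.09, 47.32 and 3.58 TPM in GILZ TG and at 4.77 to 7.39 TPM in WT. Actin genes are near-identical in sequence, and the estimated count of Acta2 was not a whole number (tolerance 0.005) in 5 of 18 libraries. The fractions were small, as in 150.01 counts in untreated GILZ KO replicate 1 and 1470.06 in untreated GILZ TG replicate 2. Whether the shared sequence affects its level was not tested. Tagln (transgelin), Cald1 (caldesmon), Myl9 (a myosin light chain) and Tpm2 (beta tropomyosin) repeated the order, with 28.62, 15.59, 8.62 and 13.89 TPM in untreated GILZ TG replicate 2. Tagln overlaps Pcsk7 on the other strand by 108 bases. Pcsk7 was at 14.92 to 17.03 TPM in all untreated libraries and at 28.57 to 31.83 TPM in all LPS libraries. Whether reads of Pcsk7 enter the Tagln counts was not tested. The strand setting of the counting is not given in the sources used here. Actg2, gamma smooth muscle actin, reached 4.68 TPM. Cnn1, the smooth muscle calponin, stayed at or under 0.21 TPM, or 8 counts, in every library. Tpm1 differed from its group: it was at 150.39 to 202.46 TPM in all untreated libraries, and in GILZ TG replicates 1 and 2 its mean was 1.23 times that of WT.

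Of the surface proteins, Pdgfrb, a receptor tyrosine kinase of fibroblasts and pericytes, was at 2.44, 2.31 and 0.15 TPM in untreated GILZ TG against 0.51, 0.27 and 0.57 TPM in WT. Thy1, a fibroblast and lymphocyte surface marker, had 4 counts or fewer in every library.

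By group means, the median GILZ TG to WT ratio over the members was 4.45 untreated, with all 38 ratios above 1, and 4.22 after LPS, with 35 above 1 and 2 below (Lox and Col4a2) and Thy1 equal. Replicates 1 and 2 alone gave medians of 6.42 and 6.01, and replicate 3 alone gave 0.580 and 0.616. Without overlap of replicates, Col4a1 alone was higher in GILZ TG untreated and no member was lower (5.07% of genes tested). After LPS, Ccdc80, Mgp and Tpm1 were higher (7.69% of genes tested) and Lox was lower (7.15%). Mgp was at 0.00, 0.15 and 0.13 TPM in WT and 2.30, 5.23 and 0.34 TPM in GILZ TG after LPS, and no ratio is given because its WT counts were near 0.

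In GILZ KO the members were on the whole lower than in WT, with a median ratio of means of 0.651 untreated and 0.768 after LPS. Without overlap, 8 members were lower in untreated GILZ KO (Col1a1, Col6a2, Adamts2, Bmp1, Fstl1, Ccn5, Cnn1 and Tpm2), against 4.57% of genes tested, and Col4a2 was higher (12.3%). After LPS 5 were lower (Col1a1, Col5a1, Serpinh1, Fstl1 and Tpm1, 6.50%) and Pdgfrb was higher (9.22%). Replicate 2 was the lowest GILZ KO library for 33 members untreated and 28 after LPS. Against GILZ TG, 5 members were lower in untreated GILZ KO without overlap (9.99%) and 4 after LPS (9.23%), and Lox was higher after LPS (10.7%).

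Some genes of stromal cells outside the members were also highest in the same libraries. Of 23 stromal and fibroblast markers, 10 were higher in GILZ TG replicates 1 and 2 than in the other 7 libraries in both treatments and 13 were not, against 4.63% of all genes tested with this pattern. The 10 were Pdgfra, Cxcl12, Twist2, Prrx1, Gas1, Gas6, Foxc1, Ebf3, Islr and Serpinf1. Of these, Pdgfra, Twist2, Gas1, Foxc1, Ebf3 and Islr were under 1 TPM in every library. The share of 4.63% is of genes that passed the count filter, which only 14 of the 23 markers did, so the shares are not alike. Serpinf1, a secreted stromal factor, was at 13.49, 15.90 and 1.76 TPM in untreated GILZ TG against 3.39, 1.63 and 3.80 TPM in WT, and Cxcl12, the stromal chemokine, at 4.44, 4.29 and 0.72 TPM against 0.60, 0.73 and 1.42 TPM. The same held for 15 of 28 other matrix glycoproteins, among them Fn1, Tnc and Nid1, for 5 of 12 other collagens and for 8 of 21 other collagen enzymes, among them Loxl2, Pcolce and Fkbp10. Of 22 other contractile and cytoskeletal genes it held for 2, Myl6 and Cnn3, and of 17 TGF-beta and YAP targets for 7.

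Defining markers of several mesenchymal cell types were near 0. The smooth muscle genes Myh11 and Myocd, the pericyte genes Kcnj8, Abcc9, Rgs5 and Higd1b, the marrow stromal gene Lepr, the osteoblast genes Sp7, Bglap2 and Dmp1 and the adipocyte genes Adipoq and Plin1 were under 1 TPM in every library. Of the whole lists, 11 of 23 stromal, 6 of 9 pericyte, 7 of 10 osteoblast and 5 of 8 adipocyte markers were under 1 TPM throughout. The summed level of the stromal list did not separate the libraries, at 7708 to 8972 TPM in untreated GILZ TG and 7409 to 8556 TPM in untreated WT, since it is made up mainly of Vim and S100a4, which were high in all libraries. Of the pericyte list, Rgs5, Mcam and Notch3 were higher in replicates 1 and 2, of the osteoblast list Alpl, of the endothelial list Emcn, and of the adipocyte list none. All of these were under 1 TPM in every library except Mcam, which reached 1.25 TPM.

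Blood cell markers moved in the same libraries. Of 8 neutrophil markers 6 were higher in GILZ TG replicates 1 and 2 in both treatments, and their summed level was 68.3 to 482.6 TPM in untreated GILZ TG, against 23.8 to 61.2 TPM in WT. Of 8 B-lineage markers 3 did so (Jchain, Ighm and Igkc), with a sum of 36.1 to 157.9 TPM against 31.0 to 35.5 TPM. Igkc was at 42.31, 97.44 and 11.36 TPM in untreated GILZ TG and at most 1.46 TPM in the other untreated libraries. Of 12 macrophage markers, C1qa, C1qb and C1qc were highest in these libraries. Of 8 mast cell and basophil markers this held for Mcpt8, which was under 1 TPM in every library, and of 10 erythroid and megakaryocyte markers for none. Macrophage markers summed to 4944 to 6075 TPM in untreated GILZ TG, against 4815 to 5572 TPM in WT. The part of any of these cells in the member levels was not tested.

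Among 11650 other genes with a mean of at least 1 TPM, the 10 with the library pattern most like the member mean (Pearson correlation of log2(TPM + 1) over 18 libraries, 0.97 to 0.99) were Sema7a, Cdh11, Fn1, Nedd4, Loxl2, Col12a1, Pcolce, Col5a3, Cyp1b1 and Serpine2. Sema7a, a membrane semaphorin, was at 3.81, 4.77 and 0.53 TPM in untreated GILZ TG against 0.50 to 0.77 TPM in WT. Cdh11, the cadherin of mesenchymal cells, was at 3.24, 3.08 and 0.45 TPM against 0.49 to 0.78 TPM.

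In the main fit, which had no replicate block, 8 members were called higher after LPS for the mean response and none lower. Of the 36 members tested, 7 were called higher in WT (edgeR quasi-likelihood test, Benjamini-Hochberg adjusted p under 0.05 over 13169 genes), against 33.5% of all genes tested and 68.6% called in either direction. In GILZ KO 8 were called higher (33.2%, with 68.5% in either direction) and in GILZ TG 6 (33.6%, with 68.7%). For the mean response over the 3 genotypes 8 were called higher (38.6%, with 80.1%), namely Lox, Pdgfrb, Fbn1, Dcn, Bmp1, Igfbp7, Col4a2 and Col4a1. No member was called lower in any of these (35.1% to 41.5% of genes), also at an unadjusted p under 0.05 and with DESeq2. Without the 4 libraries of GILZ TG replicates 1 and 2, an exclusion chosen after seeing the data, 12 members were called in WT, 10 in GILZ KO (9 higher, and Tpm1 lower), 8 in GILZ TG and 14 for the mean response (13 higher, and Tpm1 lower). GILZ TG then had 1 library per treatment, which was assumed to vary like the other groups. The main fit took 1 estimate of the spread per gene over all 6 groups. Standard errors and p-values for WT and GILZ KO thus include the spread among the GILZ TG replicates. Of the members, 34 passed the filter on the WT libraries alone and 32 on those of GILZ KO alone. Fits of these libraries alone called 13 higher and none lower in WT, and 11 higher and Tpm1 lower in GILZ KO. In GILZ TG the untreated and LPS libraries with the same number deviated together, with correlations of 0.27, 0.40 and 0.60. A fit with the replicate number as a block called 20 members higher and none lower in that genotype, against 6 without the block. With the block, 24 were higher and Mgp lower in WT, and 21 were higher and Tpm1 lower in GILZ KO. Mgp had only 0, 1 and 1 counts in the WT libraries after LPS. For the mean response 28 were higher and Tpm1 lower. The counts, and the absence of members called lower, therefore depend on the fit.

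**Figure D4:**
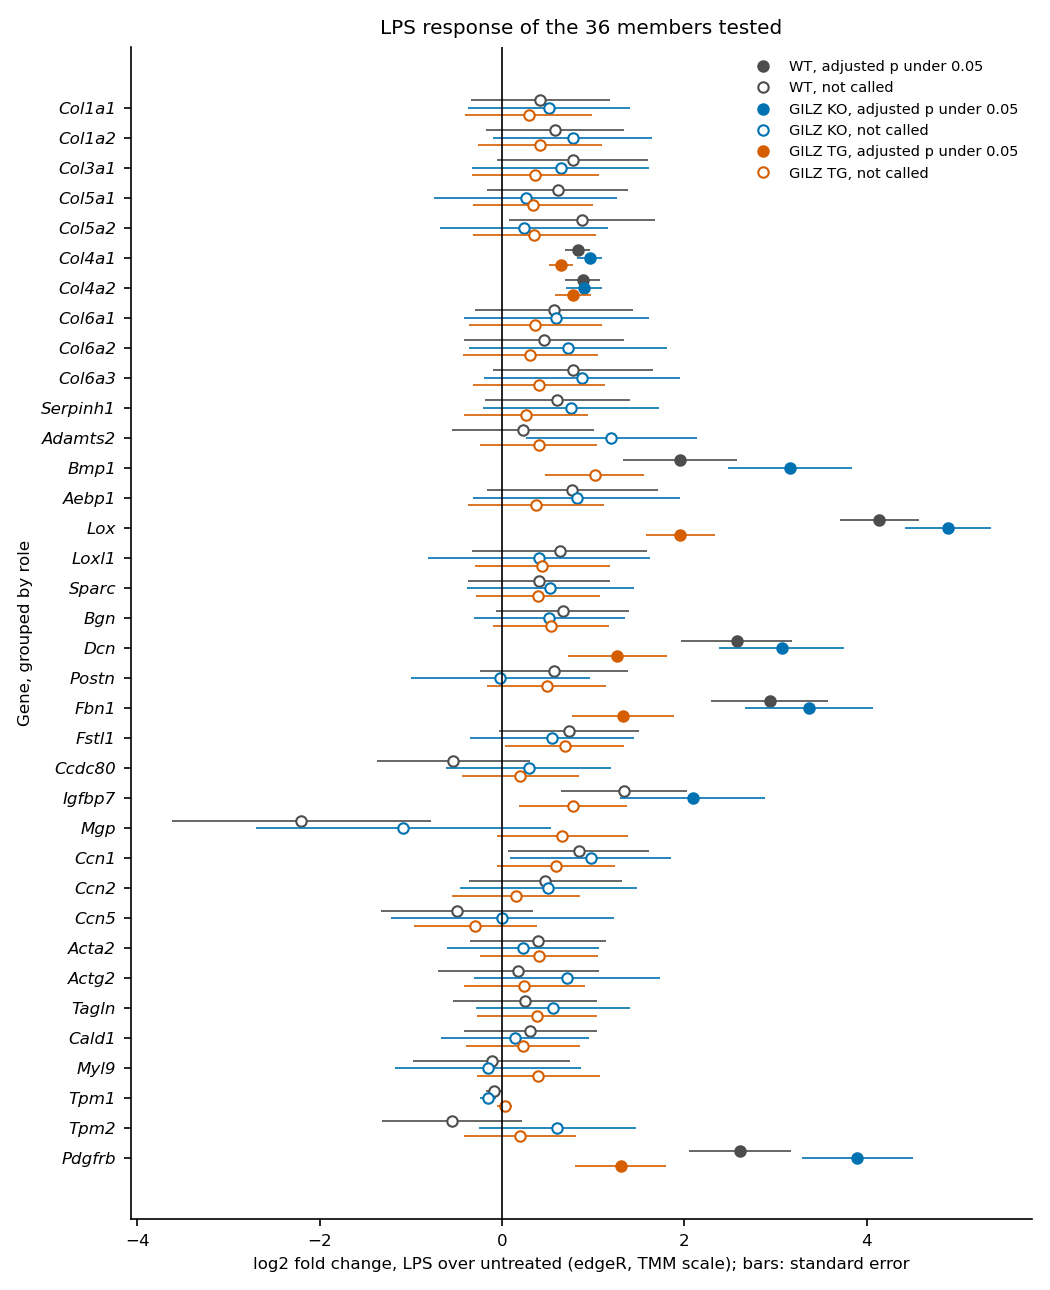
Fold change after LPS of the 36 members tested (log2, edgeR on the TMM scale, bars showing the standard error) in WT, GILZ KO and GILZ TG, filled where the adjusted p was under 0.05. Lox, Pdgfrb, Fbn1, Dcn and Bmp1 lie farthest to the right, and most other members lie between 0 and 1 with bars that reach 0.

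TMM scaling set the median change of all genes tested near 0 (-0.02 in each genotype), whereas in TPM the median gene was lower after LPS by 0.62 (WT and GILZ TG) or 0.64 (GILZ KO) on the log2(TPM + 0.1) scale. The median member changed by 0.60 in WT, 0.60 in GILZ KO and 0.40 in GILZ TG on the TMM scale. In TPM the same medians were -0.03, 0.02 and -0.23, so the median member moved less in TPM than the median gene did. Of all genes called, 48.2% to 48.9% were higher after LPS on the TMM scale, and 18.8% to 19.9% with limma on TPM.

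Lox had the greatest response of the members. It was at 1.72, 1.11 and 1.53 TPM in untreated WT and at 15.34, 14.19 and 20.17 TPM after LPS. In GILZ KO it went from 1.19, 0.63 and 1.05 TPM to 18.97, 17.52 and 20 TPM, and in GILZ TG from 6.55, 8.45 and 1.1 TPM to 13.04, 13.63 and 14.13 TPM. The LPS and untreated libraries did not overlap in any genotype. The spread of the 3 GILZ TG libraries was 5.37 ± 3.82 TPM before and 13.6 ± 0.546 TPM after LPS (SD, n = 3). The log2 fold change was 4.14 ± 0.43 (SE) in WT, 4.89 ± 0.47 in GILZ KO and 1.96 ± 0.38 in GILZ TG (edgeR adjusted p of 1.8e-07, 6.66e-08 and 1.98e-04).

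Pdgfrb rose from 0.51, 0.27 and 0.57 TPM to 1.5, 1.45 and 2.37 TPM in WT and from 0.28, 0.30 and 0.29 TPM to 2.92, 2.53 and 3.04 TPM in GILZ KO. In GILZ TG it was at 2.44, 2.31 and 0.15 TPM before and 2.49, 3.28 and 1.97 TPM after LPS, so the change was mainly in the third library. The log2 fold changes were 2.61 ± 0.56, 3.90 ± 0.61 and 1.30 ± 0.50 (SE; edgeR adjusted p of 5.37e-04, 2.24e-05 and 0.0278).

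Fbn1, the microfibril protein fibrillin 1, rose from 0.84, 0.34 and 0.57 TPM to 3.48, 2.48 and 2.33 TPM in WT, and from 0.48, 0.22 and 0.53 TPM to 2.30, 2.61 and 2.82 TPM in GILZ KO. In GILZ TG it went from 3.45, 3.96 and 0.21 TPM to 4.10, 6.16 and 1.91 TPM. Its fold change was 2.55 ± 0.37 for the mean over genotypes (log2, SE, edgeR adjusted p 5.63e-06). Dcn, the small proteoglycan decorin, rose from 0.42 to 0.74 TPM to 1.8 to 2.21 TPM in WT and from 0.28 to 0.46 TPM to 1.71 to 2.01 TPM in GILZ KO. In GILZ TG it was at 1.88, 2.95 and 0.21 TPM before and 2.60, 4.39 and 1.07 TPM after, and its mean log2 fold change was 2.30 ± 0.36 (SE, edgeR adjusted p 1.21e-05). In these genes, as in Pdgfrb, the WT and GILZ KO libraries did not overlap between treatments, whereas the GILZ TG libraries did. The GILZ TG calls of Pdgfrb, Fbn1 and Dcn (edgeR adjusted p of 0.0278, 0.0445 and 0.0464) were each lost without the LPS library of replicate 1 or of replicate 2, with limma on TPM and in a fit of the 6 GILZ TG libraries alone. Those of Pdgfrb and Fbn1 were also lost with DESeq2. Without untreated GILZ TG replicate 3 the calls of Fbn1 and Dcn were lost, and that of Dcn also without untreated replicate 1. All 3 were called with the replicate block.

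Bmp1, which cleaves the C-terminal propeptide of procollagen, rose from 0.59 to 0.90 TPM to 1.36 to 2.56 TPM in WT and from 0.37 to 0.52 TPM to 2.33 to 3.18 TPM in GILZ KO. Its mean log2 fold change was 2.04 ± 0.36 (SE, edgeR adjusted p 5.04e-05), and it was not called in GILZ TG alone (1.02 ± 0.54, edgeR adjusted p 0.106), although it was with the replicate block (1.18, edgeR adjusted p 0.00193). In WT the call was lost without the library of replicate 1 after LPS. Igfbp7, a secreted insulin-like growth factor binding protein, was called in GILZ KO (2.09 ± 0.80, edgeR adjusted p 0.0274) and for the mean (1.4 ± 0.40, adjusted p 0.00423), and not in WT (1.34 ± 0.70, adjusted p 0.0982) or GILZ TG (0.78 ± 0.59, adjusted p 0.257). With the replicate block it was called in GILZ TG (0.94, edgeR adjusted p 0.00492). Its GILZ KO call was lost in 4 of the 6 fits that left out 1 library, and it overlaps Polr2b on the other strand by 85 bases. Polr2b was lower in TPM after LPS, at 39.64 to 45.83 untreated and 23.66 to 28.33 after LPS. The median gene was lower in TPM too, so these levels do not compare directly with the TMM fold changes of Igfbp7. Whether reads of Polr2b enter the Igfbp7 counts was not tested.

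**Figure D5:**
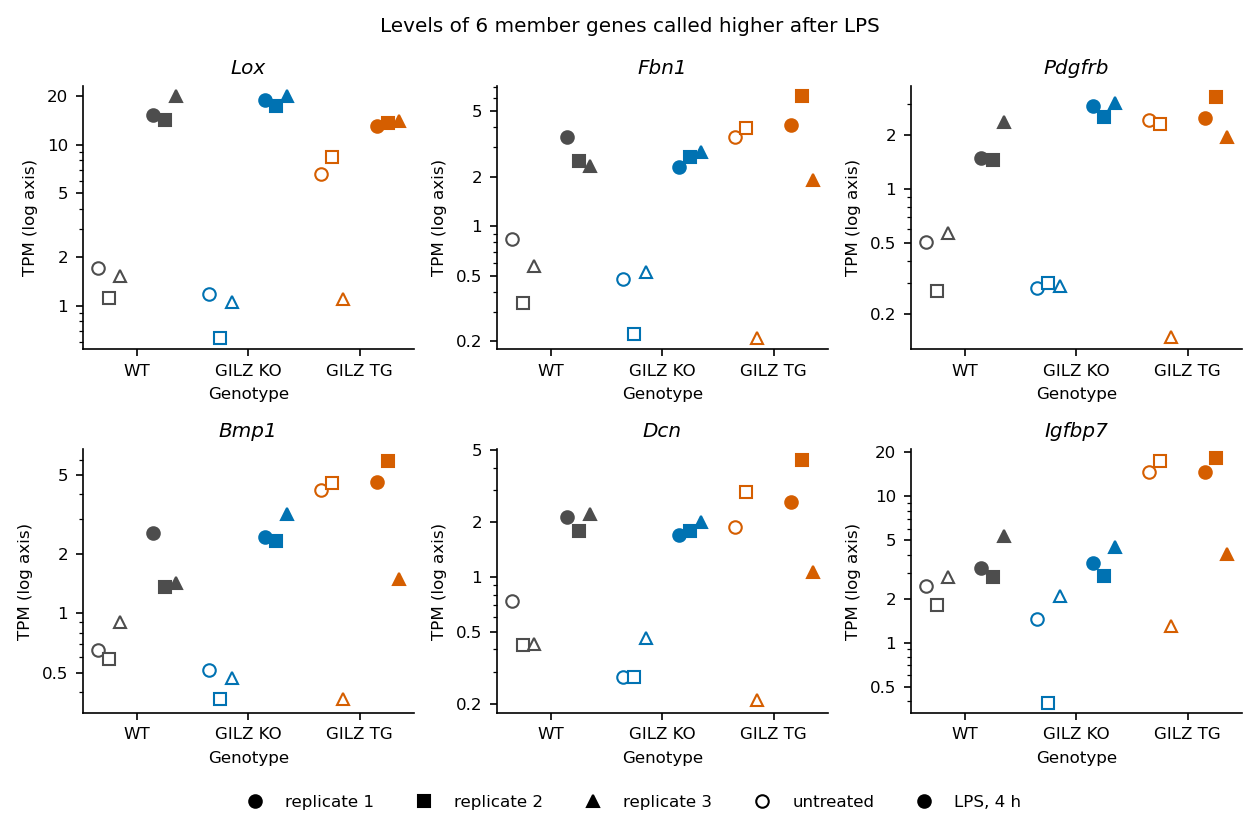
TPM (log axis) of 6 members called higher after LPS, in each library, open for untreated and filled for LPS, with the replicate number as the shape. In WT and GILZ KO the filled points lie above the open ones for all 6 genes, while in GILZ TG replicates 1 and 2 the open points are already high; for Lox all 9 LPS libraries lie between 13.04 and 20.17 TPM.

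Col4a1 and Col4a2 rose by a small amount on the TMM scale, by a mean of 0.82 ± 0.08 and 0.86 ± 0.11 (log2, SE, edgeR adjusted p of 3.1e-08 and 1.86e-06), and were called in all 3 genotypes. In TPM Col4a1 went from 9.51 ± 0.52 to 10.9 ± 1.85 (SD, n = 3) in WT, and the groups overlapped. Fitted on log2(TPM + 1) or log2(TPM + 0.1) with limma, Col4a2 was no longer called for the mean response or in any genotype, and Col4a1 was called for the mean response and in GILZ KO only. Igfbp7 also lost its calls in these fits.

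The response of Lox was smaller in GILZ TG than in WT by 2.18 ± 0.57 (log2, SE; 13.6 TPM after LPS from 5.37 TPM, against 16.6 from 1.45 TPM), which did not pass adjustment over all genes (edgeR, unadjusted p 0.00132, adjusted p 0.869). Without GILZ TG replicates 1 and 2 the difference was 0.19 in the other direction, a value that rests on 1 GILZ TG library per treatment. No member differed in its LPS response between GILZ TG and WT, or between GILZ KO and WT, at an adjusted p under 0.05. At an unadjusted p under 0.05 Lox was the 1 member in the first comparison, and there was none in the second. Over all genes tested 1 gene passed adjustment in the first (0.00759%) and 2 in the second (0.0152%).

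The other 28 members tested were not called in any genotype in the fit without a replicate block. With the block, 12 of them were called higher in GILZ TG, among them Col1a1, Col1a2, Col3a1, Acta2 and Tagln on the TMM scale, whereas in TPM each of these 5 was lower after LPS in all 3 GILZ TG replicates. Their mean log2 fold changes on the TMM scale ran from -0.87 ± 0.76 for Mgp to 0.80 ± 0.45 for Ccn1 (SE), with edgeR adjusted p of 0.109 or more. Col1a1 was at 0.41 ± 0.45, and the sign turned in TPM. Tpm1 had the smallest error of those named here, -0.07 ± 0.05. In TPM it was lower after LPS without overlap in all 3 genotypes, at 165 ± 11.8 and 98.8 ± 2.12 TPM in WT (SD, n = 3), where 64.8% of genes tested were lower in that way, and it was called lower in each genotype by limma on log2(TPM + 1). The 8 members called for the mean response, other than Col4a1, were higher in TPM without overlap in WT (16.3% of genes tested) and in GILZ KO (16.4%), and Lox alone in GILZ TG (15.7%). In the other direction, Ccdc80, Mgp, Ccn5, Cnn1, Tpm1 and Tpm2 were lower after LPS in WT, Mgp and Tpm1 in GILZ KO (67.3% of genes) and Tpm1 in GILZ TG (65.2%).

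Matrix genes outside the members had mixed responses to LPS on the same TMM scale (mean over genotypes, edgeR adjusted p under 0.05, median of all genes -0.02). The counts below stand beside 38.6% of all genes tested that were called higher and 41.5% called lower. Of 12 other collagens, 10 were tested, 4 rose and none fell, with a median of 0.35 and the greatest rises in Col15a1 (1.72), Col5a3 (1.45) and Col18a1 (0.76). Of 28 other matrix glycoproteins, 19 were tested, 6 rose and 1 fell, with a median of 0.44: Vcan, the large proteoglycan versican (4.79), Thbs1, thrombospondin 1 (2.73), and Tnc, tenascin C (1.33) rose most, and Emilin1 fell by 1.58. Of 21 other folding and cross-linking genes, 19 were tested, 6 rose and 4 fell, with a median of 0.20. Here the lysyl oxidase Loxl4 (3.27), the lysyl hydroxylase Plod3 (1.59) and the prolyl hydroxylase subunit P4ha1 (1.52) rose most, Loxl4 staying under 1 TPM in every library, and Crtap, Plod1 and P3h1 fell by 0.26, 0.17 and 0.12.

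Of 22 other contractile and cytoskeletal genes, 18 were tested, 10 rose and 5 fell, with a median of 0.28. Synpo2 (4.35, under 1 TPM in every library), Cnn3 (2.37) and Tpm4 (1.31) rose most, and Smtn, smoothelin, and the serum response factor cofactors Mrtfb and Mrtfa fell by 2.5, 1.55 and 1.18. Of 17 TGF-beta, CCN and YAP targets, 15 were tested, 5 rose and 5 fell, with a median of 0.14: Skil (2.25) and Amotl2 (1.77) were among those that rose, and Ajuba, the receptor Tgfbr1 and Smad7 fell by 2.55, 2.0 and 1.51. Of 23 stromal markers, 14 were tested, 5 rose and 2 fell, with a median of 0.30: Vcam1 (6.50), Fap (3.22) and Eng (1.93) rose most, and Kitl and Nes fell by 1.1 and 0.46. Positive values under 0.62 in these lists are smaller than the shift between the TMM and TPM scales.

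In the cell type lists the counts of genes that rose and fell were 4 and 0 of 7 tested endothelial markers, 1 and 1 of 4 pericyte markers, 1 and 2 of 3 osteoblast markers, and 2 and 1 of 3 adipocyte markers. They were 9 and 2 of 12 macrophage markers, 2 and 0 of 6 neutrophil markers, 0 and 1 of 4 B-lineage markers, 1 and 1 of 3 mast cell markers, and 1 and 0 of 3 erythroid and megakaryocyte markers. Flt1 (3.21), Kdr (2.24) and Cdh5 (1.96) rose among the endothelial markers, Fcgr1 (3.14) among the macrophage markers, and Hdc (8.68), histidine decarboxylase, among the mast cell markers.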

How the data were processed

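Poly(A) RNA of whole BMM cultures was sequenced as single reads of 75 nt after a directional library kit. Per the labels, the authors ran FastQC 0.11.2 and grape-nf 1.1.3 under Nextflow 20.10.0 on GRCm38. The quantifier and its strand setting are not given in the sources used here. The deposited table holds, for each gene and library, an expected count (estimated reads, not normalized) and a TPM value that the authors scaled for gene length and library total. The authors' DESeq2 1.40.2 comparisons are held there too, of which only the gene symbols and biotypes were used, and not the statistics.

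Levels are described in TPM. For tests, expected counts were rounded to whole numbers and fitted in R 4.3.3 with edgeR 4.0.16 (filterByExpr, TMM, quasi-likelihood test) on all 18 libraries in 6 groups of 3, leaving 13169 genes, with Benjamini-Hochberg adjustment over all of them and a threshold of 0.05. The LPS response in each genotype, its mean and its difference between genotypes were tested. Genotype contrasts were described only. The fit was also run on simulated counts with a fixed spread, no difference between genotypes and no paired replicates. That run does not cover members whose GILZ TG replicates were far apart. Alternatives used DESeq2 1.42.0, limma 3.58.1, other filters and size factors, a replicate block, subsets of libraries and each library left out. The alternative without GILZ TG replicates 1 and 2 was chosen after seeing the data. Python 3.11.15 with pandas 2.3.3 handled tables. Libraries held 14583055 to 38557029 estimated counts.

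The members and gene lists were chosen with earlier results of these data known. All members were accounted for by role, with per-library TPM for those that reached 5 TPM and show the library pattern or the LPS response, and values for every member called after LPS. From each list, counts and at most 3 genes per direction with the largest change were named, except for 1 gene that is not reported here. Gene coordinates are from GENCODE vM21 on GRCm38, which held 96.6% of the gene identifiers (43.7% with the same version), so coordinates may differ slightly from the annotation the authors used. Samples that share a genotype and a replicate number were compared for shared deviations from their group means, and 4 of 9 pairs had a correlation over 0.1, including all 3 of GILZ TG (0.27, 0.40 and 0.60). The check does not settle the pairing in any genotype. In GILZ TG, where the blocked values are given beside the results, replicate 1 correlated best with number 2. WT replicate 1 (0.264) and GILZ KO replicates 2 and 3 (0.0857 and 0.0953) correlated best with their own number. WT replicates 2 and 3 and GILZ KO replicate 1 did not.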

Additional observations from a re-analysis of the deposited data

Results flagged for a closer look

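Kitl, the stem cell factor on the stromal marker list, fell more after LPS in GILZ KO than in WT, the difference of the log2 fold changes being -1.06 ± 0.16 (SE, edgeR adjusted p 0.0372), and this test of the difference is why it is listed. It was at 36.03, 28.81 and 26.41 TPM in untreated WT and 72.67, 67.50 and 69.75 TPM in untreated GILZ KO. After LPS it was at 13.20, 12.25 and 12.64 TPM in WT and 12.84, 17.16 and 12.15 TPM in GILZ KO. In GILZ TG it was at 73.14, 67.89 and 51.32 TPM before and 24.20, 22.19 and 17.39 TPM after LPS. The untreated levels of GILZ KO and WT did not overlap, whereas the levels after LPS did. No explanation was tested.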

How the results depend on the processing

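Lox, Pdgfrb, Fbn1, Dcn, Bmp1 and Col4a1 kept their direction and their call for the mean LPS response under all 27 alternatives. The counts of members called, 7 in WT, 8 in GILZ KO, 6 in GILZ TG and 8 for the mean, moved most with the replicate block, to 25, 22, 20 and 29. In the pairing check 5 of 9 pairs correlated best with their own number, which does not settle whether the numbers paired the libraries. Fits of the 6 libraries of a genotype alone called 13 in WT and 3 in GILZ TG, limma on TPM with either pseudocount called 2 in GILZ TG, and leaving out GILZ TG replicates 1 and 2 gave 12 in WT and 14 for the mean. With each library left out, the counts ran from 6 to 7 in WT, 7 to 8 in GILZ KO, 3 to 7 in GILZ TG (3 without the LPS library of replicate 1 or 2) and 8 to 10 for the mean.

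For the difference between GILZ TG and WT, the count over all genes was 1. It was 2 with DESeq2, with limma on log2(TPM + 1) and with the replicate block, 0 without GILZ TG replicates 1 and 2, and 1 to 8 with each library left out, where members called ran from 0 to 1 (Lox, without untreated GILZ TG replicate 3). For GILZ KO and WT it was 2, with 21 by DESeq2, 1 with DESeq2 size factors or limma with either pseudocount, 8 with the replicate block and 1 to 4 with each library left out. The mean response of Col1a1 reversed to -0.18 and -0.19 with limma at pseudocounts of 1 and 0.1, and the GILZ TG minus WT difference of Lox to 0.19 without GILZ TG replicates 1 and 2, which leaves 1 library per treatment there. Apart from the change of scale and of libraries in these fits, the cause was not tested.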
